A study of Mus musculus with 30 samples.

Results

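The 50 probes described here were raised by a bacterial endotoxin in total RNA of the mouse hindbrain, and were then followed in ribosome-bound RNA of noradrenergic and serotonergic cells. They were chosen from 45281 probes of an Illumina bead array, of which 24914 were candidates because their detection p was under 0.01 on at least 3 of the 15 total RNA arrays. For each candidate the mean log2 intensity of PBS arrays was subtracted from that of LPS arrays, once among arrays of the lysate before affinity purification (Pre-IP) and once among arrays of the unbound lysate after it (Unbound), with both mouse lines pooled. The 50 probes with the largest smaller-of-both difference were kept. The deposited table pairs no probe with a gene, so the probes are given by their identifiers, their genes are not named, and the number of genes they stand for is not known.

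The mice were adults (6 to 12 weeks) of both sexes from 2 transgenic lines that carry the ribosomal protein Rpl10a fused to EGFP, driven by Slc6a2 in the transgene Tg(Slc6a2-EGFP/Rpl10a)JD1538Jdd and by Slc6a4 in Tg(Slc6a4-EGFP/Rpl10a)JD60Jdd, both on B6;FVB stock. All of them were fitted with a telemetry transponder in the peritoneum, housed singly at 30 °C and injected into the peritoneum with 100 ug per kg LPS or with sterile PBS, and the hindbrain was taken 6.5 to 7 h later. Translating ribosome affinity purification (TRAP) gave the ribosome-bound RNA, with 4 PBS and 4 LPS arrays of the Slc6a2 line and 3 PBS and 4 LPS arrays of the Slc6a4 line. Total RNA was measured with 4 PBS and 3 LPS arrays of the Slc6a2 line and 4 PBS and 4 LPS arrays of the Slc6a4 line. RNA was amplified in 2 batches, which cut across line, sex and treatment in TRAP, whereas in total RNA batch 1 held the Pre-IP arrays and batch 2 the Unbound arrays, so that these cannot be told apart. The labels do not tie arrays to individual mice, and TRAP and total RNA may come from the same mice, so the TRAP arrays did not choose the probes but are not independent of the arrays that did.

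LPS is a cell wall component of Gram-negative bacteria that is sensed by Toll-like receptor 4. Given into the peritoneum it causes cytokine release, fever and lethargy, and in the brain it raises transcripts in vessel cells, glia and neurons. Slc6a2 encodes the noradrenaline transporter, a marker of noradrenergic neurons such as those of the locus coeruleus, and Slc6a4 encodes the serotonin transporter, a marker of the raphe neurons. TRAP pulls down tagged ribosomes and thereby enriches RNA in translation in the tagged cells. Without gene names neither the identity of the purified cells nor the presence of RNA of other cell types could be checked on their defining markers, so the part of other cells in the TRAP values below was not tested. In such bulk RNA, fewer cells of a type and less RNA per cell cannot be told apart.

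The values that chose the probes ran from 1.18 to 2.64 log2 units, with a median of 1.43, for the smaller of the Pre-IP and Unbound differences. The highest-ranked probe, ILMN_2763245, had differences of 2.64 in Pre-IP and 3.24 in Unbound arrays, and the next, ILMN_2588249, 2.42 and 2.64. The last probe inside the limit, ILMN_2706269, had 1.178, and the first outside it, ILMN_2894211, had 1.175. The probes therefore form the top of a continuous range rather than a set with a gap below it.

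A few arrays stood apart on these probes. For each probe and array, the position between the means of the other PBS and the other LPS arrays of the same line and RNA kind was taken, and the probes past the midpoint were counted. In total RNA the LPS arrays had 47 to 50 of 50 probes past the midpoint, except for the Slc6a4 Pre-IP array labelled LPS female of batch 1, which had 5. The Slc6a4 TRAP array labelled LPS female of batch 1 also lay near the PBS arrays, with 10 of 50 probes past the midpoint against 38 to 43 on the other LPS arrays of that group. Conversely, the Slc6a2 Unbound array labelled PBS male of batch 2 had 26 of 50 past the midpoint, against 1 to 7 on the other PBS total RNA arrays. The Slc6a2 TRAP array of a PBS male in batch 2 had 7, the fewest of the Slc6a2 TRAP arrays. That array also detected fewer probes than any other array, 15432. This was 60.4% of the candidates, against 66.1% to 76.3% on the other TRAP arrays. Whether the labels of these arrays match the treatment that the mice received was not tested, and the LPS difference in Slc6a4 TRAP and the difference between the lines depend on it. Results for Slc6a4 TRAP are therefore given with and without the array of the LPS female of batch 1. Without its Pre-IP counterpart 37 of the 50 probes would have been chosen again, and without the Slc6a2 Unbound array of the PBS male 49 would have been.

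**Figure D1:**
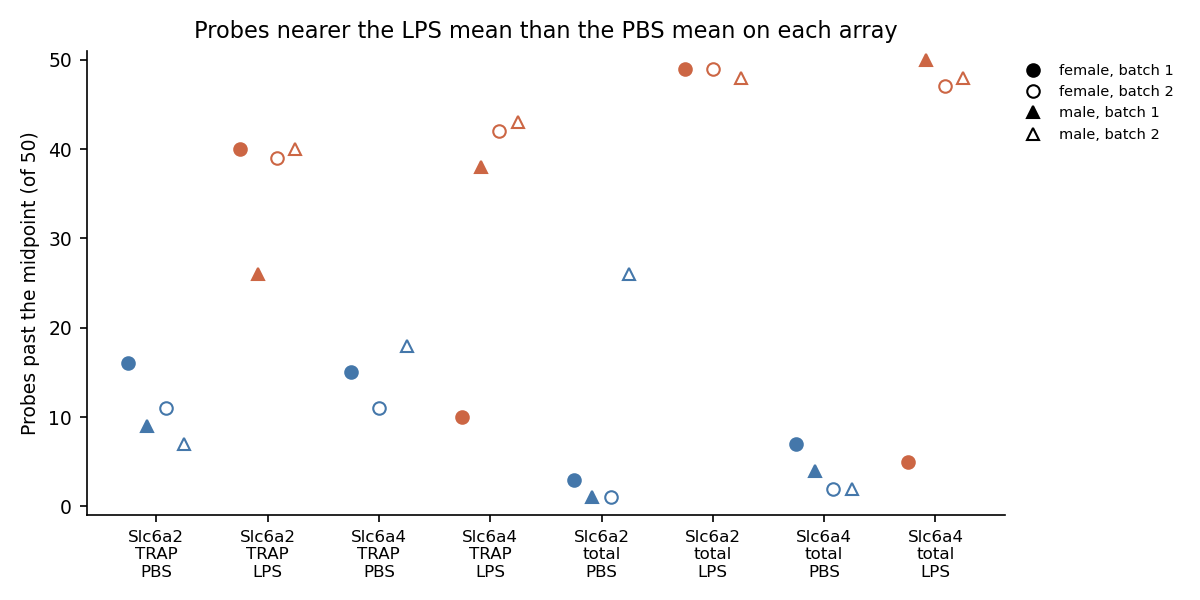
Number of the 50 probes that lay nearer the LPS mean than the PBS mean on each of the 30 arrays, by line, RNA kind (TRAP or total) and treatment; each point is 1 array, blue for PBS and orange for LPS, with the symbol giving sex and batch. The 2 Slc6a4 LPS female arrays of batch 1, at 10 in TRAP and 5 in total RNA, lie among the PBS arrays, and 1 Slc6a2 PBS total RNA array lies at 26.

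On the 26 probes past the midpoint on the Slc6a2 Unbound PBS male array, the median level was 8.44 in total RNA and 7.59 in TRAP. The other 24 probes had medians of 6.47 and 5.66, so the probes displaced on that array were brighter in the median. This split was made after the values were seen and is not tested. In Slc6a2 TRAP the median LPS difference was 1.63 in the first set and 1.34 in the second, and in Slc6a4 TRAP 0.97 and 0.66. All 6 probes that were detected on every TRAP array belonged to the first set.

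In TRAP RNA the 50 probes were mostly dim under PBS and higher under LPS. Of the 50, 43 were detected (detection p under 0.01) on at least 3 of the 15 TRAP arrays and entered the test, which is 86% against 84.5% of the candidate probes. Each of the 50 was detected on at least 1 TRAP array, and 6 on all 15. The 7 PBS TRAP arrays did not detect 16 of the 50. Of the 43 probes in the test, 22 were detected on fewer than 3 PBS TRAP arrays, so they entered through the LPS arrays, and counts over the 43 carry that choice. The mean TRAP level over all arrays had a median of 6.10 over the 50 probes and of 7.29 over the candidates, 24 of the 50 were under 6, and the highest were ILMN_1246770 at 11.84 and ILMN_1213954 at 10.52.

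The number of the 50 probes detected per array separated the treatments in the Slc6a2 line. On Slc6a2 TRAP arrays it was 13 to 21 under PBS and 30 to 41 under LPS, and on Slc6a4 TRAP arrays 17 to 21 under PBS and 19 to 35 under LPS. The lower end of the latter range, 19, was the array of the LPS female of batch 1. The lowest count in Slc6a2 TRAP, 13, was the PBS male of batch 2, the array that also detected the fewest probes in all. The median level of the 50 probes on an array was 5.08 ± 0.21 log2 units under PBS (SD, n = 4, from 4.83 to 5.30) and 7.38 ± 0.24 under LPS (SD, n = 4, from 7.08 to 7.64) in Slc6a2 TRAP, with no overlap. In Slc6a4 TRAP it was 5.31 ± 0.33 under PBS (SD, n = 3, from 5.02 to 5.66) and 6.16 ± 0.72 under LPS (SD, n = 4, from 5.11 to 6.64). Without the array of the LPS female of batch 1, at 5.11, the LPS arrays of that line also lay above all of its PBS arrays. In total RNA, whose values chose the probes, the means were 6.20 ± 0.40 (SD, n = 4) and 8.32 ± 0.29 (SD, n = 3) in the Slc6a2 line, and 5.99 ± 0.26 (SD, n = 4) and 7.62 ± 0.77 (SD, n = 4) in the Slc6a4 line, for PBS and LPS. Over the candidate probes, the median level was 7.43 to 7.48 on every array, as quantile normalisation makes it.

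**Figure D2:**
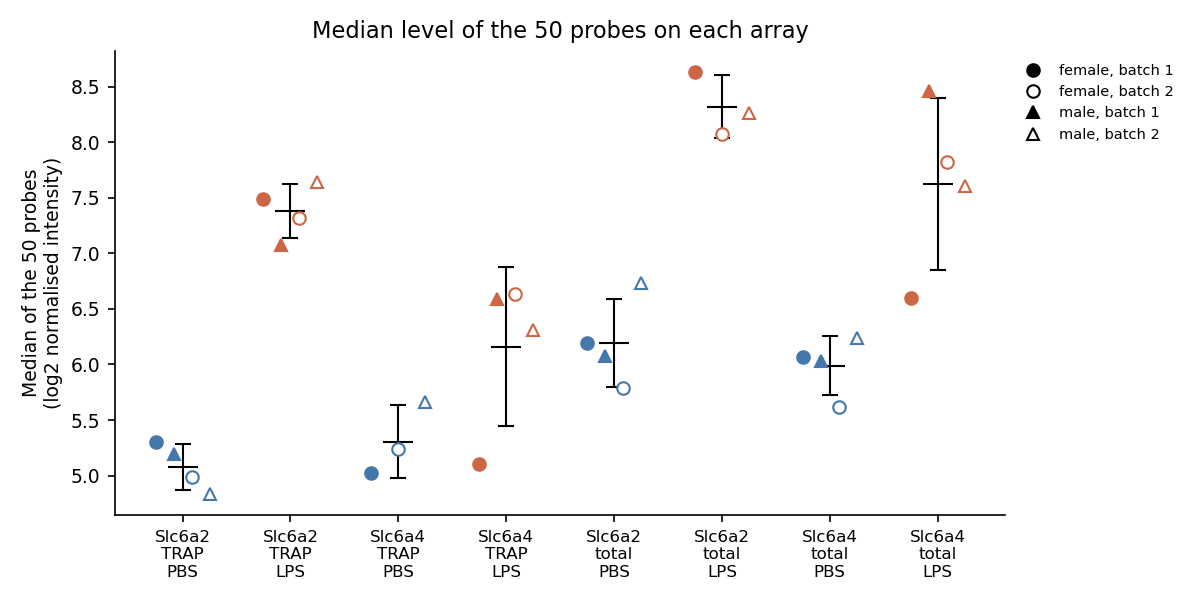
Median log2 normalised intensity of the 50 probes on each of the 30 arrays, by line, RNA kind and treatment; each point is 1 array, and the bars give mean ± SD over arrays. Slc6a2 TRAP arrays lie between 4.83 and 5.30 under PBS and between 7.08 and 7.64 under LPS, while the lowest Slc6a4 TRAP array under LPS, at 5.11, lies among those under PBS.

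The question of the first comparison was how far the LPS rise seen in whole hindbrain RNA appears in the RNA of Slc6a2 cells. The LPS minus PBS difference in Slc6a2 TRAP had a median of 1.49 log2 units over the 50 probes, with quartiles of 0.90 and 1.88 and a range from -0.15 to 4.07. It was positive for 49 of 50 probes, against a median of 0.01 and 51.7% positive over the candidate probes. Of the 50, 36 differed by more than 1 log2 unit, against 4.76% of the candidates. In 18 of the 50, every LPS array lay above every PBS array, against 1.63% of the candidates, and in none did every LPS array lie below every PBS array. Values were ordered whether or not the probe was detected, so for some of the 18 the order rests in part on values not above background.

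By limma with Benjamini-Hochberg adjustment over the 21863 probes tested, 3 of the 43 probes were called at an adjusted p under 0.05, against 0.0732% of all probes tested (16 probes). Without adjustment 30 of the 43 had a positive difference at p under 0.05, against 5.76% of all probes tested, and 0 had a negative one. As given above, 22 of the 43 entered through the LPS arrays, so this count is in part set by the filter. With no filter on dim probes 0 of the 50 were called by limma, although 32 had a positive difference at an unadjusted p under 0.05.

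The called probe with the largest difference was ILMN_2634083, which the rule ranked 4. Its level in Slc6a2 TRAP was 6.93, 7.11, 5.74 and 8.13 on the 4 PBS arrays and 10.69, 10.93, 10.67 and 10.93 on the 4 LPS arrays, in the order female and male of batch 1, then female and male of batch 2. The LPS arrays were all higher than the PBS arrays, and they spread far less, with an SD of 0.14 (n = 4) against 0.98 (n = 4). The fitted difference was 3.83 (SE 0.50, adjusted p = 0.0353, limma), 3.79 in batch 1 and 3.87 in batch 2. In Slc6a4 TRAP the same probe was at 9.56, 7.47 and 8.25 under PBS (female of batch 1, female and male of batch 2) and at 8.90, 10.24, 10.63 and 10.32 under LPS. There 1 PBS array lay above 1 LPS array, and the difference was 1.62 (SE 0.57, adjusted p = 1 rounded, limma), or 2.07 (SE 0.53) without the LPS female of batch 1.

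ILMN_2846775 followed nearly the same course. It was at 7.28, 7.28, 6.34 and 8.06 under PBS and at 10.87, 10.80, 10.33 and 10.45 under LPS in Slc6a2 TRAP, again without overlap, and its fitted difference was 3.37 (SE 0.45, adjusted p = 0.0353, limma). Over the 30 arrays its values and those of ILMN_2634083 correlated at r = 0.995, and the probes differed by -0.61 to 0.56 log2 units on any array. Of 1225 pairs among the 50 probes, 2 had r above 0.95 over the 30 arrays (median r 0.63), the other pair being ILMN_2665364 and ILMN_2665359 at 0.96. These pairs were picked out after their values were seen, and these correlations include the shared change with treatment. Whether the probes of a pair target the same transcript is not known here, so the 3 calls may stand for fewer than 3 genes.

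The third called probe, ILMN_1213954, was bright in all samples and changed less. In Slc6a2 TRAP it was at 10.04, 8.92, 10.32 and 10.00 under PBS and at 10.74, 11.17, 11.22 and 11.47 under LPS. All LPS arrays lay above all PBS arrays, and the fitted difference was 1.33 (SE 0.20, adjusted p = 0.0487, limma). In Slc6a4 TRAP it was at 10.27, 10.23 and 10.16 under PBS and at 10.14, 10.68, 11.36 and 11.14 under LPS, where the lowest value was again that of the LPS female of batch 1. The difference there was 0.76 (SE 0.23), and 0.93 (SE 0.22) without that array.

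These calls depended on the fit and on single arrays. All 3 were lost with the Slc6a2 line fitted alone (adjusted p = 0.0906, 0.0906 and 0.227, limma), with array quality weights (0.313 to 0.348) and with the letter of the sample titles in place of the batch (0.129 to 0.297). The number of probes called in Slc6a2 TRAP fell to 0 when any 1 of the following was left out: either PBS female or any LPS array of Slc6a2 TRAP, either PBS female of Slc6a4 TRAP, or either LPS male of Slc6a4 TRAP. It was 5 without either LPS female of Slc6a4 TRAP and 3 without either PBS male of Slc6a2 TRAP or the PBS male of Slc6a4 TRAP. The median difference over the 50 probes moved less, from 1.30 to 1.70 when 1 array was left out. Without the PBS male of batch 2 of Slc6a2 TRAP it was 1.36, with 49 of 50 positive.

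The largest differences in Slc6a2 TRAP were not called. ILMN_1231814 was at 4.89, 4.79, 4.72 and 4.82 on the PBS arrays, on none of which it was detected, and at 9.04, 8.63, 8.49 and 9.32 on the LPS arrays. It was thus detected on all LPS arrays alone, with a difference of 4.07 (SE 0.64, adjusted p = 0.0518, limma). Because it was not detected under PBS, its fold is a bound, at least 6.25-fold higher under LPS. ILMN_2803674 was at 4.62, 6.78, 4.71 and 7.65 under PBS and at 10.40, 8.50, 10.21 and 10.22 under LPS, with a difference of 3.89 (SE 0.60, adjusted p = 0.0518, limma). Its PBS values were lower in both females, where it was not detected, than in both males. The highest-ranked probe of the rule, ILMN_2763245, was at 4.43, 4.55, 4.44 and 5.02 under PBS, detected on none of these arrays, and at 8.31, 7.23, 8.16 and 9.03 under LPS (3.57, SE 0.63, adjusted p = 0.0861, limma).

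**Figure D3:**
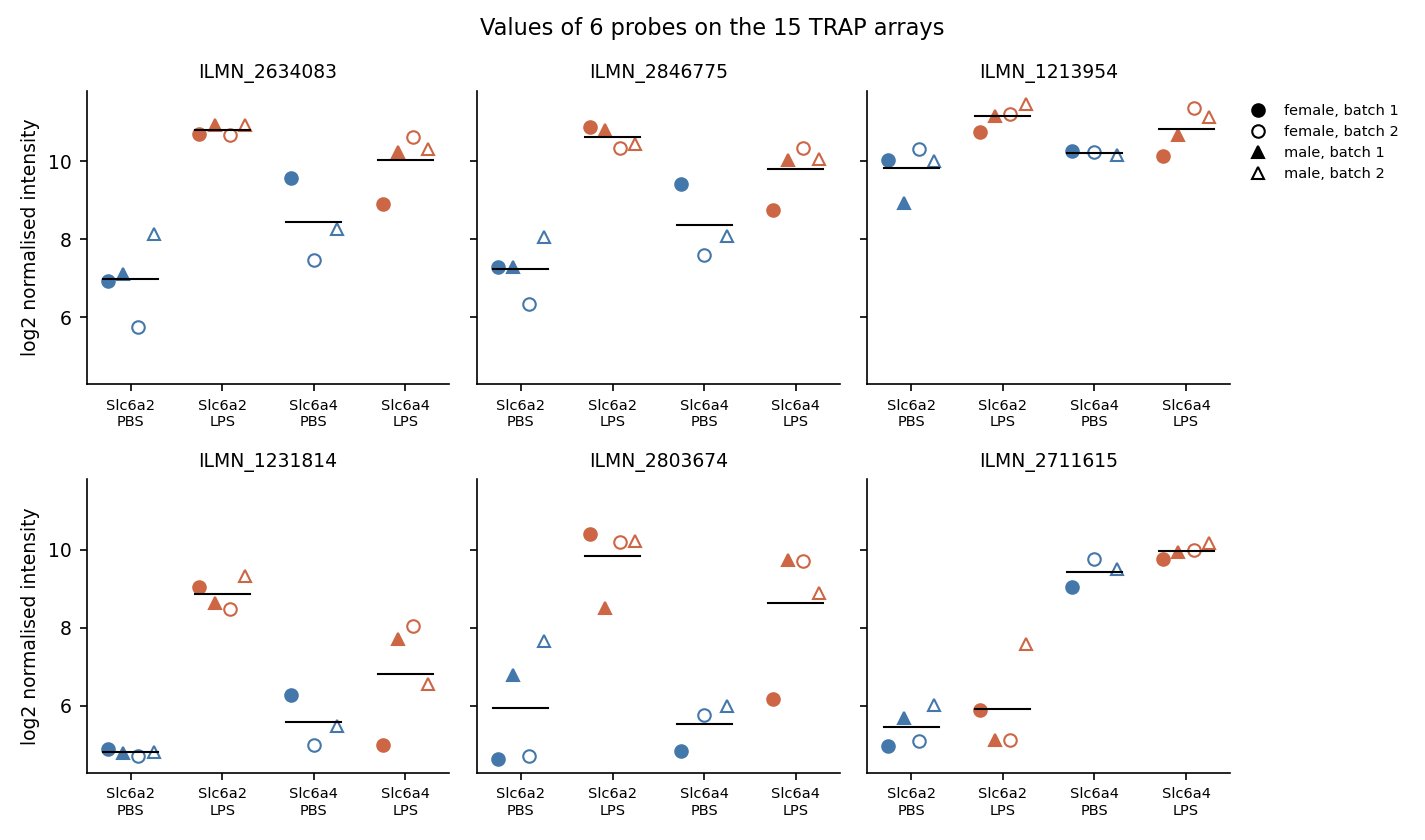
Log2 normalised intensity of 6 of the 50 probes on the 15 TRAP arrays, by line and treatment; each point is 1 array, the symbol gives sex and batch, and the line is the group mean. The first 3 panels hold the probes called for LPS in Slc6a2 TRAP, ILMN_1231814 and ILMN_2803674 have the largest differences there, and ILMN_2711615 is at 9.04 or above on every Slc6a4 TRAP array.

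In all, 22 of the 50 probes were detected on no PBS array of Slc6a2 TRAP, and 24 were detected on every LPS array. The 5 probes for which both held were ILMN_1231814, ILMN_2763245 (at least 3.89-fold higher under LPS), ILMN_1232875 (at least 2.45-fold), ILMN_2772632 (at least 2.29-fold) and ILMN_2640789 (at least 2.25-fold), named after their values were seen. With the 21 probes that have only a bound set at it, the median difference of the 50 was 1.14. The 1 probe detected on no Slc6a2 TRAP array has no bound and kept its fitted difference. Of the 21 bounds, 11 were 1-fold or under. As these are lower bounds, they do not tell whether the probe rose. The 6 probes detected on every PBS array, for which the level before LPS is measured, had differences from 0.53 to 3.37 with a median of 1.22.

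At the other end, ILMN_1254307 had a difference of -0.15 (SE 0.62, adjusted p = 0.968, limma), the lone negative value. It was at 6.19, 6.30, 4.52 and 4.57 under PBS and at 4.82, 4.74, 5.58 and 5.86 under LPS. The difference was -1.46 in batch 1 and 1.17 in batch 2, so its sign depended on the batch. ILMN_1232600 was detected on no Slc6a2 TRAP array, with a difference of 0.20, although it differed by 1.95 in total RNA of that line. It was 1 of the 7 probes that did not enter the test.

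The median difference was further apart between the batches than between the sexes. In Slc6a2 TRAP the median over the 50 probes was 1.11 within batch 1, where 44 were positive, and 1.86 within batch 2, where all 50 were positive. It was 1.48 in females (49 positive) and 1.48 in males (46 positive). Batch 2 includes the PBS male array that detected the fewest probes. ILMN_2745370 was at 4.48 on it, against 7.16 to 7.94 on the other PBS arrays of Slc6a2 TRAP. Its difference was 0.13 in batch 1 and 2.28 in batch 2. In contrast, ILMN_2634083 was higher on that array, at 8.13, than on the others (5.74 to 7.11). How far that array raised the median of batch 2 was not tested. The LPS male of batch 1 was the LPS array of Slc6a2 TRAP nearest to PBS, with 26 of 50 probes past the midpoint against 39 or 40 on the others. The non-overlap count of 18 became 26 without that array, against 3.15% of the candidates, and 19 without the PBS male of batch 2, against 2.75%. Leaving out an array also raises the share of the candidates, which was 1.63% with all arrays.

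The same question was asked of Slc6a4 cells. The LPS minus PBS difference in Slc6a4 TRAP had a median of 0.81 log2 units over the 50 probes, with quartiles of 0.38 and 1.21 and a range from -0.55 to 3.20. It was positive for 45 of 50, against 50.7% of the candidates, whose median was 0.00. Of the 50, 8 were detected on no Slc6a4 TRAP array, so for these 8 the sign rests on values not above background. Differences above 1 log2 unit were found for 17 of 50, against 1.14% of the candidates, and every LPS array lay above every PBS array in 8 of 50, against 3.00%. As in Slc6a2 TRAP, the order of arrays, here and below, includes values not above background. By limma 0 of 43 were called, against 0% of all probes tested, and 12 of 43 had a positive difference at an unadjusted p under 0.05, against 0.585%. As in Slc6a2 TRAP, counts over the 43 are in part set by the filter, here and below.

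Without the array of the LPS female of batch 1 the median difference was 0.92 and 47 of 50 were positive. Then 24 of 50 differed by more than 1 log2 unit, against 1.21% of the candidates, and 25 of 50 did not overlap between treatments, against 5.54%. When the PBS female of batch 1 was left out instead, which leaves 2 PBS arrays, the count was 17, against 6.52% of the candidates. Still 0 of 43 were called by limma, against 0.00461% of the 21713 probes tested, and 15 of 43 had a positive difference at an unadjusted p under 0.05, against 0.553%. The smallest adjusted p of the 43 was then 0.237. On the array of the LPS female of batch 1, 12 of 50 probes were above every PBS array of the group, against 33 to 38 on the other LPS arrays. Within batch 1, which holds that array, the mean of the LPS female and the LPS male minus the value of the lone PBS array, a female, had a median of 0.34 with 35 of 50 positive, and this value mixes in sex. A fit of batch 1 alone with a term for sex gave a median of 0.22. Within batch 2, which had both sexes under both treatments, the median was 1.13 with 48 of 50 positive.

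ILMN_2803674 had the largest difference in Slc6a4 TRAP. It was at 4.84, 5.75 and 6.00 under PBS and at 6.17, 9.74, 9.71 and 8.89 under LPS, so the groups did not overlap, but the LPS female of batch 1 lay only just above the highest PBS array. The difference was 3.20 (SE 0.68, adjusted p = 1 rounded, limma), and 3.87 (SE 0.55, adjusted p = 0.237, limma) without that array. ILMN_2588249 was at 7.74, 4.84 and 5.70 under PBS and at 7.01, 8.52, 9.30 and 8.49 under LPS, where the PBS female of batch 1 lay above the LPS female of that batch. Its difference was 2.52 (SE 0.86), 0.03 between the means of batch 1 and 3.63 in batch 2. In Slc6a2 TRAP the same probe was at 5.80, 5.62, 8.13 and 8.03 under PBS and at 9.12, 9.65, 10.24 and 9.70 under LPS, a difference of 2.78 (SE 0.75, adjusted p = 0.257, limma).

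The 5 probes with a negative value in Slc6a4 TRAP were ILMN_2777498 (-0.55, SE 0.73), ILMN_3161790 (-0.31, SE 0.78), ILMN_2706269 (-0.20, SE 0.56), ILMN_2702303 (-0.09, SE 0.74) and ILMN_1246770 (-0.02, SE 0.18). None exceeded its standard error. Without the LPS female of batch 1, ILMN_2777498 (-0.38) and ILMN_2706269 (-0.05) stayed negative. ILMN_3161790 (0.23), ILMN_2702303 (0.42) and ILMN_1246770 (0.05) were then positive. ILMN_3161790 was detected on no Slc6a4 TRAP array. ILMN_2777498 was detected on 1 Slc6a4 TRAP array, the PBS female of batch 1, at 7.23, whereas the other 6 arrays had 4.66 to 5.33. In Slc6a2 TRAP it was detected on 3 of the 4 LPS arrays, at 7.59, 7.03 and 7.43, and on no PBS array. Of the 50 probes, 24 were detected on no PBS array of Slc6a4 TRAP and 18 on every LPS array, and 0 were both. With the 16 probes that have only a bound set at it, the median difference was 0.35, or 0.57 without the LPS female of batch 1. Probes detected on no Slc6a4 TRAP array, 8 with all arrays, have no bound and kept their fitted difference. With all arrays, 12 of the 16 bounds were 1-fold or under. As lower bounds, these do not tell whether the probe rose.

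**Figure D4:**
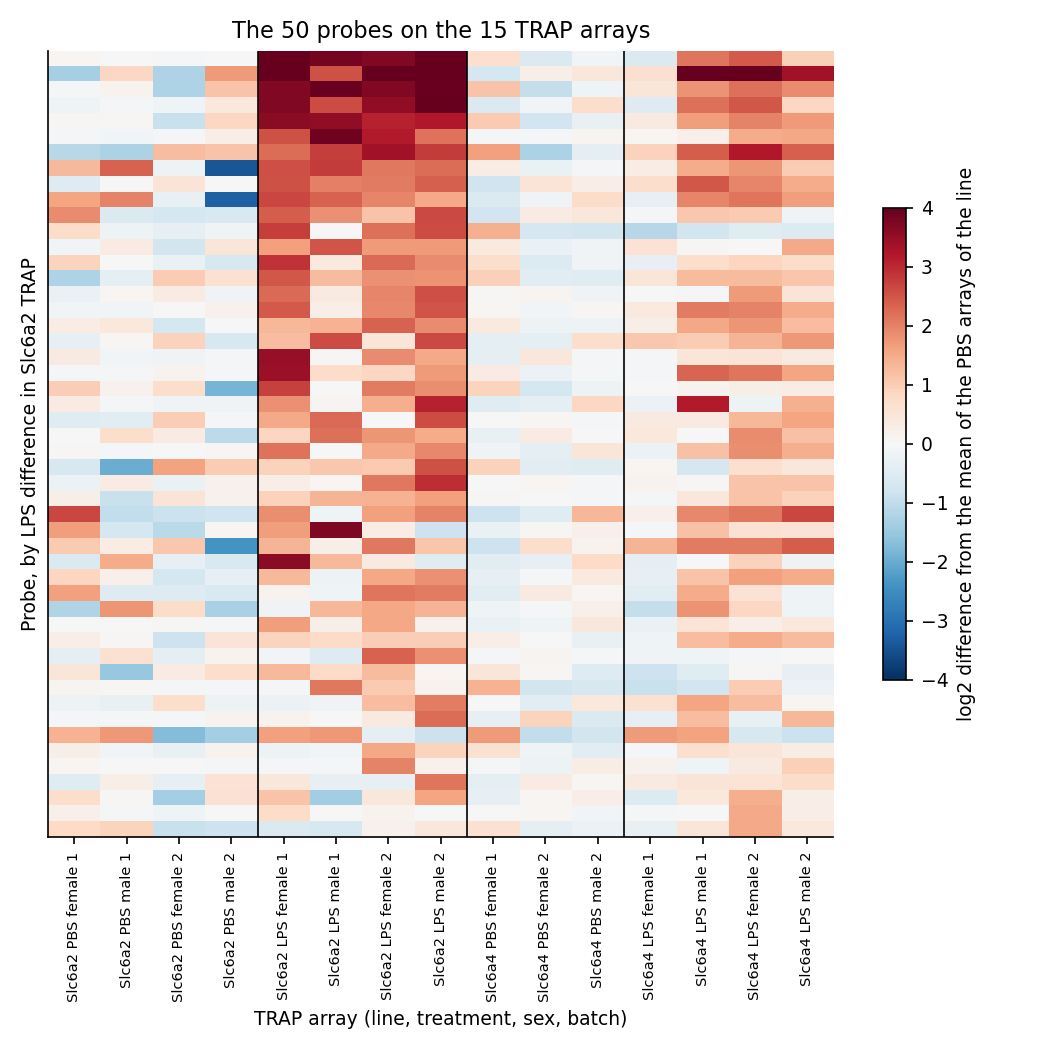
Each row is 1 of the 50 probes, ordered by its LPS difference in Slc6a2 TRAP, and each column 1 of the 15 TRAP arrays; colour gives the log2 difference from the mean of the PBS arrays of the line, with values beyond 4 drawn at the end of the scale. The 4 LPS columns of the Slc6a2 line are red for most probes, and the Slc6a4 column of the LPS female of batch 1 resembles the PBS columns.

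Whether the response differed between the lines was tested directly, as the LPS difference in Slc6a2 TRAP minus that in Slc6a4 TRAP. The median over the 50 probes was 0.63 log2 units, and 42 of 50 were positive, against a median of 0.02 and 51.4% positive over the candidates. Under PBS, 22 of the 50 were detected on no Slc6a2 TRAP array and 24 on no Slc6a4 TRAP array. For these probes the value rests in part on levels not above background. By limma 0 of 43 were called, against 0% of all probes tested, and 7 of 43 had a positive value at an unadjusted p under 0.05, against 2.07%. The standard error of a single probe was 0.83 in the median. Without the LPS female of batch 1 the median was 0.44 with 36 of 50 positive, 0 of 43 were called against 0%, and 3 of 43 had a positive value at an unadjusted p under 0.05, against 1.33%. No single probe was thus shown to differ in response between the lines, and the shift of the 50 as a set was not tested.

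The probe with the largest line difference was ILMN_1231814. In Slc6a4 TRAP it was at 6.26, 4.99 and 5.48 under PBS, detected on none of these arrays, and at 4.98, 7.71, 8.03 and 6.54 under LPS. Compared with the values from 8.49 to 9.32 in Slc6a2 TRAP given above, all Slc6a4 LPS arrays were lower. The difference of responses was 2.78 (SE 0.97, adjusted p = 1 rounded, limma), or 2.04 (SE 0.72) without the LPS female of batch 1. ILMN_2777498 followed at 2.45 (SE 0.98). The most negative was ILMN_2745370 at -0.80 (SE 0.89), whose difference was 1.20 in Slc6a2 TRAP and 2.01 in Slc6a4 TRAP. One PBS array of Slc6a2 TRAP, the male of batch 2, had 4.48 for this probe where the other 3 had 7.16 to 7.94, and without it the line difference was -1.77. ILMN_1254307 was at -0.71 (SE 0.94).

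**Figure D5:**
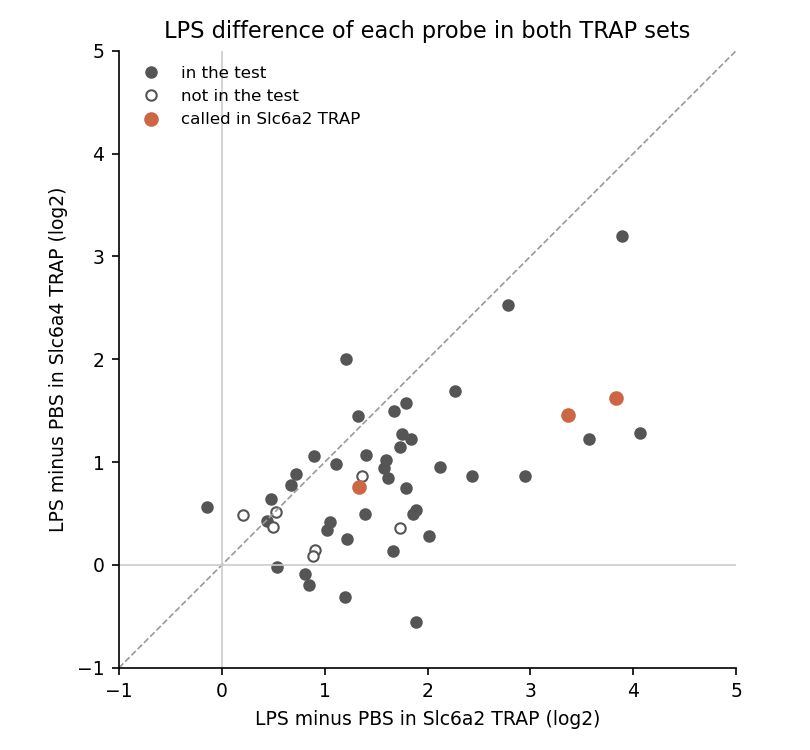
LPS minus PBS difference of each of the 50 probes in Slc6a2 TRAP (horizontal) and Slc6a4 TRAP (vertical), both in log2 units from the same fit; filled points entered the test, open points did not, orange points were called in Slc6a2 TRAP, and the dashed line marks equal values. Of the 50 points, 42 lie below the dashed line.

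Across the 50 probes the differences in the 2 lines correlated at Pearson's r = 0.57 and Spearman's rho = 0.51, and at 0.63 and 0.55 without the LPS female of batch 1. The points share the arrays, the normalisation and the way the probes were chosen, so these values describe the probes and are not a test.

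The sex difference of the LPS response was 0.15 in the median of the 50 probes in Slc6a2 TRAP (female minus male) and -0.43 in Slc6a4 TRAP. The Slc6a4 value rests on a lone PBS male array. It also includes the LPS female of batch 1, which lay near the PBS arrays, and a median without that array is not given. By limma 0 of 43 were called in either line, against 0% of all probes tested in each. At an unadjusted p under 0.05 there were 3 of 43 in Slc6a2 TRAP, against 9.32% of all probes tested, and 1 of 43 in Slc6a4 TRAP, against 0.348%. The 3 were ILMN_2803674 (5.64 in females and 2.15 in males), ILMN_2665359 (0.55 and 2.92) and ILMN_1213954 (0.80 and 1.86), and the 1 was ILMN_2762944 (a difference of -2.74, SE 1.07), all named after their values were seen. In Slc6a2 TRAP, ILMN_2803674 was detected on neither PBS female and ILMN_2665359 on neither PBS male. Their values in these sexes thus rest on PBS levels not above background. The median standard errors of single probes were 1.10 and 1.25 log2 units.

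The level of the probes was also compared between the lines, averaged over sex and treatment. The Slc6a2 minus Slc6a4 difference in TRAP had a median of 0.32, with 33 of 50 positive, and 2 of 43 were called by limma, against 8.59% of all probes tested. ILMN_2711615 was at 9.04, 9.75 and 9.49 on the PBS arrays of Slc6a4 TRAP and at 9.77, 9.95, 9.98 and 10.16 on the LPS arrays. In Slc6a2 TRAP it was at 4.97, 5.69, 5.11 and 6.01 under PBS and at 5.89, 5.11, 5.11 and 7.57 under LPS, and was detected on the last of these arrays alone. The line difference was -3.96 (SE 0.35, adjusted p = 4.42e-05, limma), a value that rests on levels not above background on 7 of the 8 Slc6a2 TRAP arrays. Under PBS, where none of the Slc6a2 TRAP arrays detected it, it was at least 9.20-fold higher in Slc6a4 TRAP. The LPS difference in Slc6a4 TRAP, where it was detected on every array, was 0.64 (SE 0.53). In Slc6a2 TRAP the fitted value was 0.47 (SE 0.46), but the probe was not above background there under PBS, so the size of a change is not measured. The call was lost (-2.96, adjusted p = 0.234, limma) with the letter of the sample titles in place of the batch, and over all alternatives the adjusted p ran from 1.10e-05 to 0.234. Of the TRAP arrays, letter A held 6 of the Slc6a2 line alone, letter B 5 of the Slc6a4 line alone and letter C 2 of each, so this letter and the line can barely be told apart. In total RNA the same probe was at 5.82 to 8.28 in the Slc6a2 line and at 6.21 to 8.75 in the Slc6a4 line.

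The other call was ILMN_2879614, with a level higher in Slc6a2 TRAP by 1.23 (SE 0.34, adjusted p = 0.0475, limma). In Slc6a4 TRAP this probe was detected on no PBS array and on 2 of the 4 LPS arrays. The difference thus rests in part on levels not above background. Its values were 6.15, 6.61, 5.55 and 6.77 under PBS and 7.92, 8.78, 7.97 and 7.96 under LPS in Slc6a2 TRAP, and 6.12, 5.46 and 5.57 under PBS and 6.28, 5.78, 5.70 and 7.24 under LPS in Slc6a4 TRAP. The PBS values of the lines overlapped and the LPS values did not. The call was lost when most single arrays were left out, with adjusted p from 0.0256 to 0.935 over all alternatives.

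Compared with total RNA, the probes were lower in TRAP. The mean TRAP minus total RNA level, with lines and treatments weighted equally, had a median of -0.81 over the 50 probes, against -0.09 over the candidates, and was positive for 4 of 50. Under PBS the median was -0.55 and under LPS -1.25. Because LPS arrays of total RNA chose the probes, this difference is in part set by the rule and is given as a description. It was -0.94 within batch 1, which holds Pre-IP RNA, and -0.80 within batch 2, which holds Unbound RNA. Without the 3 arrays labelled Slc6a4 LPS female of batch 1 (TRAP and Pre-IP) and Slc6a2 PBS male of batch 2 (Unbound) the median was -0.78, and 3 of 50 were positive. The level also depended on the scaling, from -1.29 where TRAP and total RNA were normalised separately to -0.61 with a larger offset.

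The probe highest in TRAP relative to total RNA, ILMN_1246770 (0.65), had opposite signs in the batches, at 2.43 in batch 1 and -0.88 in batch 2. In Slc6a2 TRAP it was at 13.25, 13.59, 10.12 and 10.51 under PBS and at 13.52, 13.59, 11.49 and 11.00 under LPS. In Slc6a4 TRAP it was at 12.96, 10.27 and 10.52 under PBS and at 12.95, 12.87, 10.59 and 10.40 under LPS. On both lines the arrays of batch 1 were thus all higher than those of batch 2, whatever the treatment, whereas in total RNA the mean of batch 1 was lower, at 10.50 against 11.68 in the Slc6a2 line and at 10.68 against 11.31 in the Slc6a4 line. The others with a positive value were ILMN_2711615 (0.32), ILMN_2718266 (0.26) and ILMN_2777498 (0.02). The lowest were ILMN_2745370 (-2.22) and ILMN_2803674 (-2.10). ILMN_2745370 had -2.32 in batch 1 and -2.23 in batch 2, whereas ILMN_2803674 had -3.07 and -1.28. The value of ILMN_2803674 includes the Slc6a4 Pre-IP array of the PBS male, at 12.34. The other PBS total RNA arrays of that line had 6.47 to 7.02. Whether this probe stays among the lowest without that array was not tested.

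The LPS difference in TRAP was mostly below that in total RNA of the same line. In the Slc6a2 line the median difference in total RNA was 1.92 and 11 of 50 probes had a larger difference in TRAP, and in the Slc6a4 line it was 1.503 and 3 of 50 did. Without the arrays that stood apart the medians in total RNA were 2.14 and 1.91, and 9 and 4 probes had a larger difference in TRAP. The total RNA values chose the probes, which favours high values there, so these counts are not a test of unequal response.

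Single probes spread more between like arrays in Slc6a2 TRAP than in Slc6a4 TRAP. The median SD within treatment was 0.86 log2 units over the 50 probes in Slc6a2 TRAP, against 0.61 over the candidates, and 0.64 in Slc6a4 TRAP, against 0.34. Without the LPS female of batch 1 the latter was 0.57. In both lines the 50 probes thus varied more between arrays of a treatment than the candidates did. The fit shares 1 estimate of the spread between the lines.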

How the data were processed

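RNA of 30 hindbrain samples was measured on Illumina bead arrays, 1 per sample. Per the file headers, the authors deposited non-normalised intensity values, each with its detection p-value. The submitters' processing notes name lumi, with no version or role. How beads were read and averaged is not given in the sources used here. TRAP arrays detected 15432 to 19424 probes and total RNA arrays 20395 to 23122, and the number of arrays limits the precision.

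Intensities were background-corrected and quantile normalised over all 30 arrays and put on the log2 scale (neqc, offset 16, limma 3.58.1, R 4.3.3). For the 15 TRAP arrays, 1 mean per line, sex and treatment and a term for amplification batch were fitted (lmFit, eBayes with a trend) on the 21863 probes with detection p under 0.01 on at least 3 TRAP arrays, with Benjamini-Hochberg adjustment over all of them and contrasts averaging both sexes. The script was tested on simulated data. Differences of probes outside the test come from the same model. A bound sets the LPS mean against, per PBS array, the higher of the probe's value and the lowest detected value. As no label ties arrays to mice, p-values measure the spread between these arrays, which may be technical in part.

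The 50 probes, the lists and the alternatives (normalisation, offset, filter, design, weights, each array or batch left out) were chosen with earlier results of these data known. Gene lists and cell type markers that had been listed could not be used because no probe is paired with a gene. No sequence is printed because the sources used here hold no probe sequences. Named probes are those with the 2 largest and 2 smallest LPS differences in each TRAP set and in their difference, the 2 highest and lowest in TRAP minus total RNA, the 2 with the largest rule value and those beside the limit, and all called ones. Other probes are named where a count was 5 or fewer.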

Additional observations from a re-analysis of the deposited data

Results flagged for a closer look

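In groups of 4 arrays, the named probes, the median of the 50 and the count past the midpoint were examined for an array far from the other 3 (a gap to the nearest array, over the range of the group, above Dixon's critical value). Of 108 combinations of a quantity and a group, 14 held such an array. The critical value is meant for 1 in 20 among independent, normally distributed values. These combinations share arrays, and most of the probes were named for their values in these data, so the 14 cannot be set against chance. Probes past the midpoint numbered 26 on the Slc6a2 TRAP LPS male of batch 1 (39 to 40 on the others), 26 on the Slc6a2 Unbound PBS male of batch 2 (1 to 3), 10 on the Slc6a4 TRAP LPS female of batch 1 (38 to 43) and 5 on the Slc6a4 Pre-IP LPS female of batch 1 (47 to 50).

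The latter array was also low for all 3 probes called in Slc6a2 TRAP. ILMN_2634083 was at 8.60 there (11.22 to 11.57 on the other LPS total RNA arrays of the line), ILMN_2846775 at 8.46 (11.06 to 11.33) and ILMN_1213954 at 10.96 (12.53 to 12.72). ILMN_2803674 was at 12.34 on the Slc6a4 Pre-IP array of the PBS male, where the other PBS total RNA arrays of the line had 6.47 to 7.02, so this array exceeded every LPS array for that probe. It was also low, at 8.50, on the Slc6a2 TRAP LPS male of batch 1 (10.21 to 10.40). On that array ILMN_2879614 was high, at 8.78 (7.92 to 7.97). Among PBS arrays of Slc6a2 TRAP, ILMN_2777498 was at 5.56 in the female of batch 1 (4.50 to 4.65), ILMN_3161790 at 6.51 in the male of batch 1 (4.40 to 4.69) and ILMN_2706269 at 5.09 in the same male (6.96 to 7.31). ILMN_2711615 was at 8.28 on the Slc6a2 Unbound PBS male (5.82 to 6.11 on the other PBS total RNA arrays of the line). The causes were not tested.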

How the results depend on the processing

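The number of the 43 probes called for LPS in Slc6a2 TRAP, 3, was 0 with no filter on dim probes, with the letter of the sample titles (its meaning is not given) in place of the batch, with array quality weights, within batch 1 or batch 2 alone, and with the line fitted alone, and from 0 to 5 when 1 array was left out. The count for the level difference between the lines, 2, was 1 with no filter, with the filter on all TRAP arrays, with additive terms and within batch 1 alone, 0 with the title letter, and from 1 to 3 when 1 array was left out. No array was left out or imputed in the main fit. The counts for Slc6a4 TRAP, the line difference and the sex difference were 0 under every alternative run. The labels give no replicate number that pairs arrays; the fit without the batch term (no replicate block) called 3 in Slc6a2 TRAP. The median LPS difference ran from 0.65 (median-centred, no background correction) to 1.86 (batch 2 alone) in Slc6a2 TRAP and from 0.22 (batch 1 alone, with a sex term) to 1.13 (batch 2 alone) in Slc6a4 TRAP. The median TRAP minus total RNA level ran from -1.29 (separate normalisation) to -0.61 (offset 50). Non-overlapping probes in Slc6a4 TRAP numbered 8 to 25 when 1 array was left out, while the share of the candidates was 4.84% to 6.78%. Between 37 and 50 probes were chosen again under the alternatives, with 37 for medians in place of means. With the probes chosen again, and the Slc6a4 LPS female of batch 1 left out of both kinds of RNA (added after the data were seen), the median LPS difference in Slc6a4 TRAP was 0.97 and the line difference 0.34. The differences also depended on the offset, with a median of 1.01 in Slc6a2 TRAP at offset 50. How far differences near background lie from the true change was not tested. The causes of these shifts were not tested.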
